A study of Mus musculus with 9 samples.

Results

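Fragments of the cytoplasmic ribosomal RNAs (rRNAs) were followed in mouse atrial appendages. The files list 6 such rRNAs by name, 45S-rRNA, 28S-rRNA, 18S-rRNA, 5.8S-rRNA, 5S-rRNA and 4.5S-rRNA, among 996 small RNA features in all, and every one of the 6 passed the filter on low counts. All mice were of the strain C57BL/6. The treated group was 18 months old and had received curcumin, a polyphenol of turmeric, at 100 mg/kg per day in skim milk from month 12 on. The old group was 18 months old and the young group 5 months old, both without curcumin, and each of the 3 groups had 3 libraries. The labels do not say whether the untreated groups drank plain milk, nor do they tie a library to an animal or state whether tissue was pooled, so p-values measure the spread between libraries, which may be technical.

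The libraries were made by PANDORA-seq from RNA of 15 to 45 nucleotides. Before ligation the RNA passes 2 enzymes, the demethylase AlkB, which clears methylated bases that stop reverse transcription, and T4 polynucleotide kinase, which repairs RNA ends, so that fragments with such ends are read as well. The values therefore count fragments and do not measure intact rRNA. In a bulk sample, fewer cells of a type and less RNA per cell cannot be told apart.

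RNA polymerase I transcribes the 45S precursor in the nucleolus, and its spacers are removed to release the 18S, 5.8S and 28S rRNAs. The 18S rRNA forms the core of the small ribosomal subunit. The 28S, 5.8S and 5S rRNAs belong to the large subunit, and 5S is made by RNA polymerase III from genes of its own. Each of these rRNAs is encoded by many gene copies, so a read cannot be given to 1 copy. Small rodent RNAs named 4.5S are no part of the ribosome; which of them the annotation means is not stated.

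The 3 libraries numbered 1 stood apart in all groups, and the rRNAs took part in this to unequal degrees. In a fit of all features by the quasi-likelihood test of edgeR, with group as a term, the contrast of these libraries with numbers 2 and 3 called 120 of the 520 features tested (23.1%, at an adjusted p under 0.05), among them 1 of the 6 rRNAs. 5S was lower in the libraries numbered 1 by a log2 value of −0.73 (SE 0.23; edgeR, adjusted p = 0.0425), although in shares of clean reads treated library 1, at 1.506%, was not below treated library 3, at 1.503%. The rRNAs 28S, 18S and 4.5S had values of −0.61, −0.52 and −0.53 that did not pass (adjusted p = 0.0534, 0.0540 and 0.0740). 5.8S and 45S had −0.17 and −0.14 (adjusted p = 0.420 and 0.555). Since every group holds 1 such library, the spread within groups contains this difference.

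Clean reads, those left after adapter trimming, numbered 12899427 to 19707803 per library. At this depth a share of clean reads had a 95% Wilson interval whose half-width was 0.0212 percentage points or less, for counting error only. The 6 cytoplasmic rRNAs together held 31.9%, 34.9% and 39.1% of clean reads in curcumin-treated mice, 33.3%, 39.8% and 40.3% in old mice, against 31.3%, 43.8% and 37.4% in young mice. The ranges of the 3 groups overlapped, and the library numbered 1 was the lowest of each group. The mean share was 35.3% ± 3.62 in curcumin-treated mice, 37.8% ± 3.92 in old mice and 37.5% ± 6.28 in young mice (SD, n = 3 each). The difference was −2.47 percentage points for curcumin-treated minus old mice (exact permutation test, two-sided, p = 0.5), 0.292 for old minus young (exact p = 1.0) and −2.18 for curcumin-treated minus young (exact p = 0.7). None exceeded the spread between libraries, and with 3 libraries against 3 no such test can give a p under 0.1.

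Within this sum the 28S and 18S rRNAs dominated everywhere. Of the reads of the 6 rRNAs, 28S made up 42.3% to 54.9% and 18S 32.98% to 35.8% over the 9 libraries. 5.8S took 4.16% to 9.05%, 5S 3.04% to 5.73% and 45S 3.56% to 10.2%, while 4.5S stayed between 0.0405% and 0.0727%. These are shares of reads that were not divided by the length of the rRNA, so they do not rank the molecules by number.

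**Figure D1:**
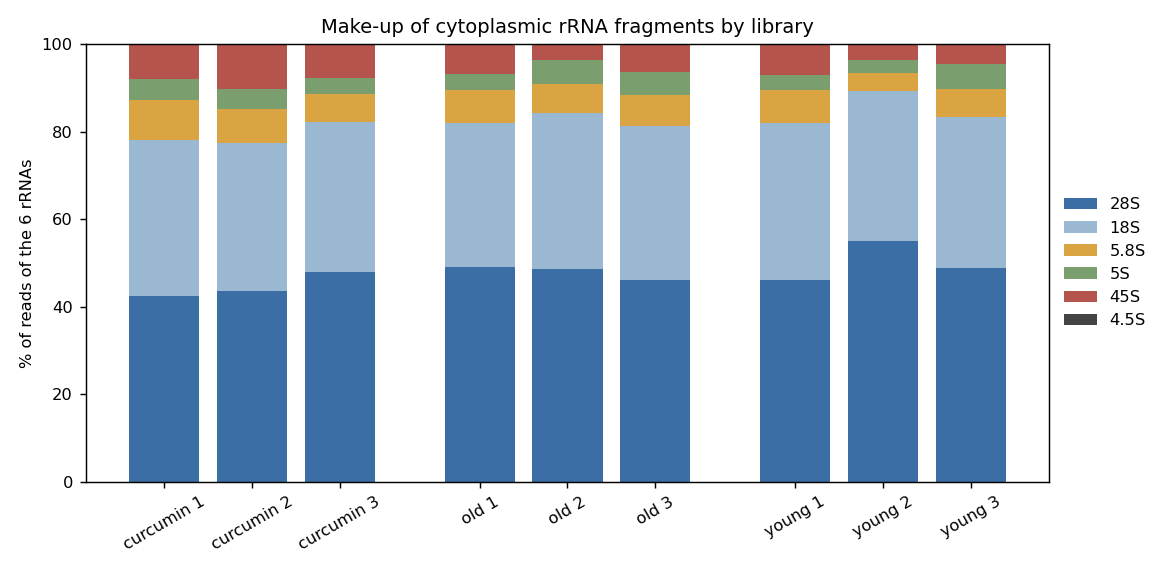
Make-up of the cytoplasmic rRNA reads in each library; every bar is 1 library and its parts are the percent of the reads of the 6 rRNAs. The 28S part ranges from 42.3% to 54.9%, the 45S part is between 7.63% and 10.2% in curcumin-treated mice and at most 6.83% in old and 6.995% in young mice, and 4.5S is too small to be seen.

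45S-rRNA was the rRNA whose share was higher in all 3 curcumin libraries than in any other library. 45S-rRNA fragments held 2.57%, 3.57% and 2.98% of clean reads in curcumin-treated mice, 2.27%, 1.43% and 2.55% in old mice, against 2.19%, 1.56% and 1.72% in young mice. The groups did not overlap, but the lowest curcumin value, 2.57%, was close to the highest old value, 2.55%. The mean was 3.04% ± 0.5001 in curcumin-treated mice, 2.08% ± 0.586 in old mice and 1.82% ± 0.326 in young mice (SD, n = 3 each), a ratio of means of 1.46 for curcumin-treated over old and 1.67 for curcumin-treated over young. Of all 520 features tested, 10.6% lay above the old group in the same way and 7.31% above the young group, so such a separation is not rare in these libraries. Old and young mice overlapped in 45S, with a ratio of means of 1.14.

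Reads of 45S were also set against those of the rRNAs cut from it. How a read fitting both 45S and a mature rRNA was assigned is not stated, so the 45S reads may not all come from the precursor. At most 1.98% of the 45S reads of a library matched the genome. In curcumin-treated mice there were 9.24, 12.0 and 8.62 reads of 45S per 100 reads of 18S, 5.8S and 28S in sum, against 7.63, 3.94 and 7.18 in old animals and 7.82, 3.81 and 5.13 in young ones. The curcumin libraries were again above all others, and library 2 was the highest of the treated group and the lowest of both untreated groups. The mean was 9.95 ± 1.80 in curcumin-treated, 6.25 ± 2.01 in old and 5.59 ± 2.04 in young mice (SD, n = 3 each). Because this ratio is taken within a library, it does not depend on how libraries are scaled to each other.

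Tested as a log2 ratio, 45S to mature rRNA was 0.71 higher in curcumin-treated than in old mice, or 1.64-fold (exact permutation test, p = 0.1, the smallest the design allows; adjusted p = 0.6 over the 18 tests of this family). Against young mice the difference was 0.88, or 1.84-fold (exact p = 0.1, adjusted p = 0.6). Old mice differed from young by 0.17 (exact p = 0.8, adjusted p = 0.9). No difference passed the correction. With genome-matched reads alone, a small part of the 45S reads, the difference from old mice was 0.11 (exact permutation p = 0.6). Within replicate numbers 1, 2 and 3 the ratio of all reads was higher by 0.27, 1.61 and 0.26 against old mice. Against young mice it was higher by 0.24, 1.65 and 0.75. Since the groups did not overlap, any pairing gives 3 of 3 higher pairs. The exact sign-flip test over the pairs then gives p = 0.25, its smallest value, so the pairs add no support. Without old library 2 the difference from old mice was 0.41. Without the 3 libraries numbered 1 it was 0.93 from old and 1.20 from young mice (exact p = 0.333 for each, the smallest for 2 against 2).

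**Figure D2:**
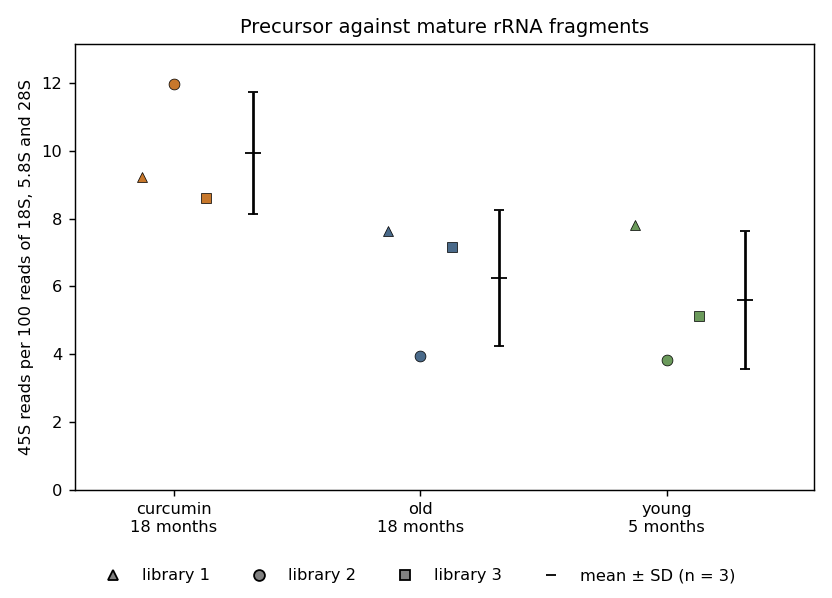
Reads of 45S rRNA per 100 reads of 18S, 5.8S and 28S rRNA in each library (symbols by library number), with the mean and SD of 3 libraries beside them. Curcumin-treated libraries lie between 8.62 and 12.0, old libraries between 3.94 and 7.63 and young libraries between 3.81 and 7.82.

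Ratios were also formed between single rRNAs. Of the 15 ratios between any 2 of the 6 rRNAs, 3 did not overlap between curcumin-treated and old mice, and the same 3 did not overlap between curcumin-treated and young mice; between old and young mice there were 0. Of the 132870 ratios between any 2 of the 516 tested features with reads in every library, 10.8% did not overlap between curcumin-treated and old mice, 4.03% between old and young and 9.54% between curcumin-treated and young mice. All 3 had 45S as numerator. 45S over 28S averaged 0.195 ± 0.0377 in curcumin-treated, 0.117 ± 0.0374 in old and 0.104 ± 0.0443 in young mice. 45S over 18S averaged 0.2495 ± 0.0452 in curcumin-treated, 0.163 ± 0.0553 in old and 0.144 ± 0.0467 in young mice. 45S over 4.5S averaged 166 ± 5.00 in curcumin-treated, 91.9 ± 29.4 in old and 96.9 ± 18.6 in young mice (SD, n = 3 for each). The ratio of 45S to 5.8S overlapped in all comparisons, at 1.14 ± 0.225 in curcumin-treated, 0.775 ± 0.218 in old and 0.833 ± 0.0994 in young mice. These 15 ratios were not tested one by one, and they share their 45S values.

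28S-rRNA, the large rRNA that holds the peptide-forming centre of the ribosome, had the most reads of any rRNA. Its share of clean reads was 13.5%, 15.2% and 18.7% in curcumin-treated mice, 16.3%, 19.4% and 18.6% in old mice, against 14.4%, 24.1% and 18.2% in young mice. Young library 2 was the highest of all, and the 3 groups overlapped. 18S-rRNA, which reads the mRNA in the small subunit, held 11.4%, 11.8% and 13.4% in curcumin-treated mice, 11.0%, 14.1% and 14.1% in old mice, against 11.2%, 15.0% and 12.9% in young mice. The groups overlapped here too, and across the 9 libraries the log2 levels of 18S and 28S had a Pearson correlation of 0.90, given as a description since both are shares of the same libraries.

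The balance of 28S to 18S reads was 1.18, 1.29 and 1.39 in curcumin-treated mice, 1.48, 1.37 and 1.32 in old mice, against 1.28, 1.60 and 1.41 in young mice. No group stood apart. The log2 difference was −0.11 for curcumin-treated minus old (exact permutation p = 0.3, adjusted p = 0.675), −0.04 for old minus young (exact p = 0.7, adjusted p = 0.84) and −0.15 for curcumin-treated minus young (exact p = 0.3, adjusted p = 0.675).

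5.8S-rRNA, which pairs with 28S in the large subunit, had higher shares in both groups of 18 months than in young mice. It held 2.89%, 2.70% and 2.46% of clean reads in curcumin-treated mice, 2.51%, 2.73% and 2.85% in old mice, against 2.38%, 1.82% and 2.38% in young mice. No young library reached any older one, and the treated and untreated old mice overlapped. The ratio of means was 1.23 for old over young and 1.22 for curcumin-treated over young mice, and both comparisons use the same young libraries. Among the 520 features 2.12% lay above the young group without overlap in old mice and 7.31% in curcumin-treated mice. In CPM after TMM scaling, which sets libraries to the level of the bulk of their features, the 5.8S groups overlapped in both comparisons. 5.8S also had the smallest spread within groups of the 6 rRNAs, a log2 SD of 0.15, against 0.49 for the median of all tested features.

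Set against 28S, 5.8S gave ratios of 0.214, 0.177 and 0.132 in curcumin-treated, 0.154, 0.141 and 0.153 in old and 0.165, 0.0758 and 0.130 in young mice. The groups overlapped, and young library 2 was the lowest. The largest log2 difference was 0.54, for curcumin-treated minus young (exact permutation p = 0.2, adjusted p = 0.675); curcumin-treated minus old was 0.20 and old minus young 0.34 (exact p = 0.5 and adjusted p = 0.75 for each). Single libraries weighed on these values: old minus young was 0.023 without young library 2, curcumin-treated minus old 0.033 without treated library 1 and 0.38 without treated library 3, and curcumin-treated minus young 0.22 without young library 2. With genome-matched reads alone, a small part of all 5.8S reads, the log2 difference was 0.95 for curcumin-treated minus old and 1.18 for curcumin-treated minus young (exact permutation p = 0.1 for each, unadjusted).

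5S-rRNA held 1.51%, 1.60% and 1.503% of clean reads in curcumin-treated mice, 1.20%, 2.15% and 2.14% in old mice, against 1.08%, 1.33% and 2.15% in young mice. The treated libraries were close together, while each untreated group spanned low and high values on both sides of them. With a log2 SD of 0.40 within groups, 5S was the most variable of the 6 rRNAs. The ratio of 5S to 28S reads, which compares 2 rRNAs of the large subunit made by different polymerases, was 0.112, 0.105 and 0.0803 in curcumin-treated, 0.0739, 0.111 and 0.115 in old and 0.0754, 0.0554 and 0.118 in young mice. All groups overlapped, and the exact permutation p was 1.0 for curcumin-treated against old, 0.7 for old against young and 0.5 for curcumin-treated against young.

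4.5S-rRNA was the rarest of the 6. It had 2487 to 4898 reads per library, or 0.0154%, 0.0221% and 0.0174% of clean reads in curcumin-treated mice, 0.0184%, 0.0219% and 0.0293% in old mice, against 0.0185%, 0.0178% and 0.0204% in young mice. Old library 3 was the highest, and the groups overlapped in all 3 comparisons.

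**Figure D3:**
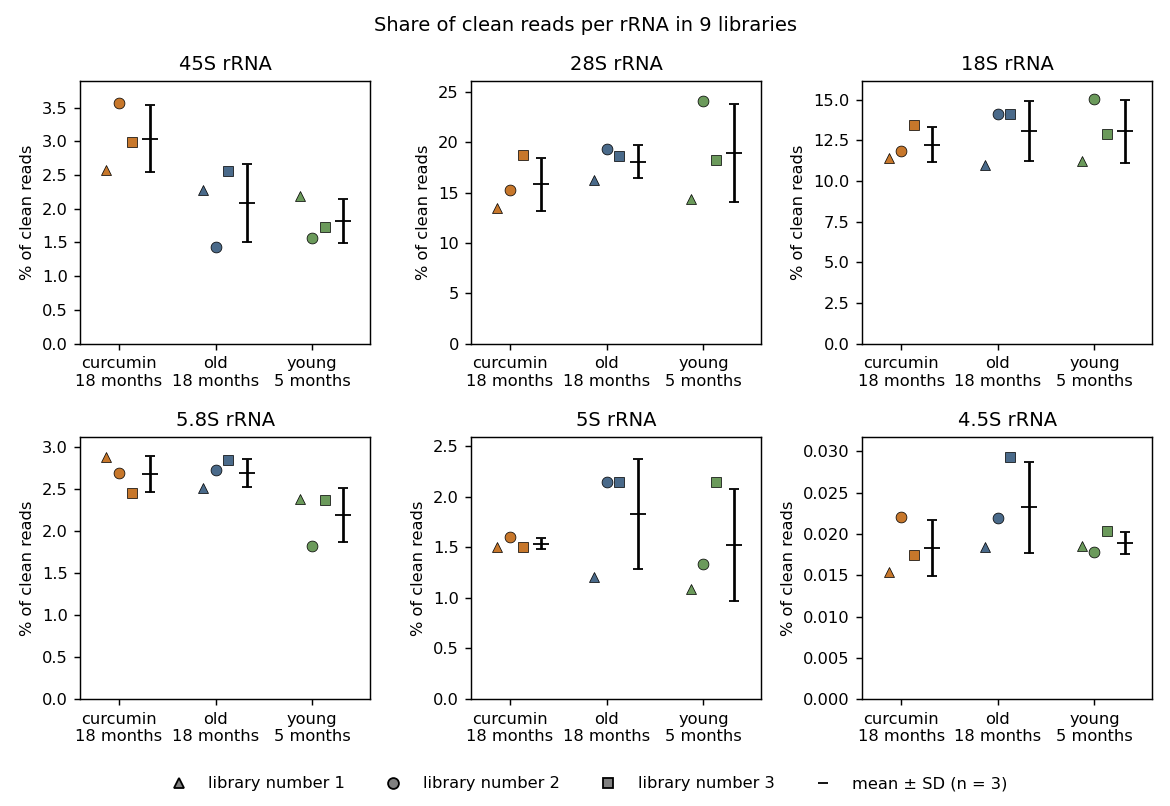
Percent of clean reads held by each cytoplasmic rRNA in the 9 libraries (symbols by library number), with the mean and SD of 3 libraries beside each group; every vertical axis starts at 0. Curcumin-treated libraries lie above the others in 45S, where the nearest pair is 2.57% and 2.55%, young libraries lie below the others in 5.8S, and the groups overlap in the remaining 4 rRNAs.

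The mitochondrial rRNAs, which form the ribosomes of the mitochondrion and are abundant in heart, served as a comparison. 16S held 2.38% ± 0.381 of clean reads in curcumin-treated, 2.38% ± 0.378 in old and 2.53% ± 0.211 in young mice, and 12S held 0.0252% ± 0.00799 in curcumin-treated, 0.0216% ± 0.00339 in old and 0.0256% ± 0.00797 in young mice (SD, n = 3 each). Their groups overlapped in all 3 comparisons. Both were called in the contrast of the libraries numbered 1 with numbers 2 and 3. 12S was lower there by a log2 value of −0.95 and 16S by −0.44 (edgeR, adjusted p = 0.0177 and 0.0461). Between cytoplasmic and mitochondrial rRNAs no difference was tested. A separate Ensembl class of mitochondrial rRNA held 1.49% ± 0.354 in curcumin-treated, 1.41% ± 0.227 in old and 1.48% ± 0.143 in young mice (SD, n = 3 each). Which of its reads are 12S or 16S is not stated, so the 12S and 16S values may not cover all their fragments.

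The files also divide each rRNA by whether its reads matched the genome, and the members fell into distinct kinds. All 5S and 4.5S reads matched, and 96.9% to 98.1% of 18S reads did. For 28S the matched share was 70.1% to 76.9%. For 5.8S and 45S it was small, 0.929% to 2.94% and 0.873% to 1.98%, so these 2 rRNAs are known here almost wholly from reads that matched the rRNA reference and not the genome.

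The matched share itself varied with the libraries. For 45S it was 0.876%, 0.893% and 0.873% in curcumin-treated mice, 1.18%, 1.90% and 1.00% in old mice, against 1.15%, 1.98% and 1.37% in young mice. The treated libraries were nearly equal and below all others. The matched 45S reads themselves overlapped, at 3721 to 5506 in curcumin-treated, 4273 to 4695 in old and 3047 to 4948 in young libraries. The lower share thus goes with the higher count of unmatched 45S reads. How often the matched share of other features separates the groups was not counted. For 5.8S it was 1.29%, 2.94% and 2.08% in curcumin-treated mice, 1.29%, 0.929% and 1.19% in old mice, against 1.23%, 1.28% and 1.18% in young mice, so treated libraries 2 and 3 were well above the rest, while treated library 1, at 1.2903%, was barely above the highest old one, at 1.2869%. For 28S it was 76.2%, 76.9% and 74.8% in curcumin-treated, 75.9%, 70.1% and 72.0% in old and 76.9%, 71.7% and 71.0% in young mice. In both untreated groups the library numbered 1 was the high one, and the groups overlapped. The matched share of single rRNAs was not tested.

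Over all 6 rRNAs the matched share was 72.2%, 71.6% and 73.4% in curcumin-treated mice, 73.3%, 74.1% and 72.9% in old mice, against 74.2%, 76.1% and 74.1% in young mice. Treated mice lay below young mice without overlap, so any pairing is negative in 3 of 3 pairs. The difference was −2.43 percentage points (exact permutation test, p = 0.1, the least that 3 against 3 can give, adjusted p = 0.6). Curcumin-treated minus old was −1.02 (exact p = 0.3) and old minus young −1.41 (exact p = 0.2), both with adjusted p = 0.675. This summed share also depends on the make-up of the 6 rRNAs, so it is not separate from their shares. Of their reads, the seldom matched 45S and 5.8S averaged 8.63% and 7.69% in curcumin-treated mice, against 5.05% and 6.04% in young mice. The matched share of 28S itself averaged 76.0% in curcumin-treated and 73.2% in young mice. The part of the make-up was not tested. When genome-matched reads alone were counted, the log2 ratio of 45S to mature rRNA differed by 0.11 between curcumin-treated and old mice (exact p = 0.6) and by 0.15 between curcumin-treated and young mice (exact p = 0.6). The 45S reads behind that value are at most 1.98% of those in a library.

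**Figure D4:**
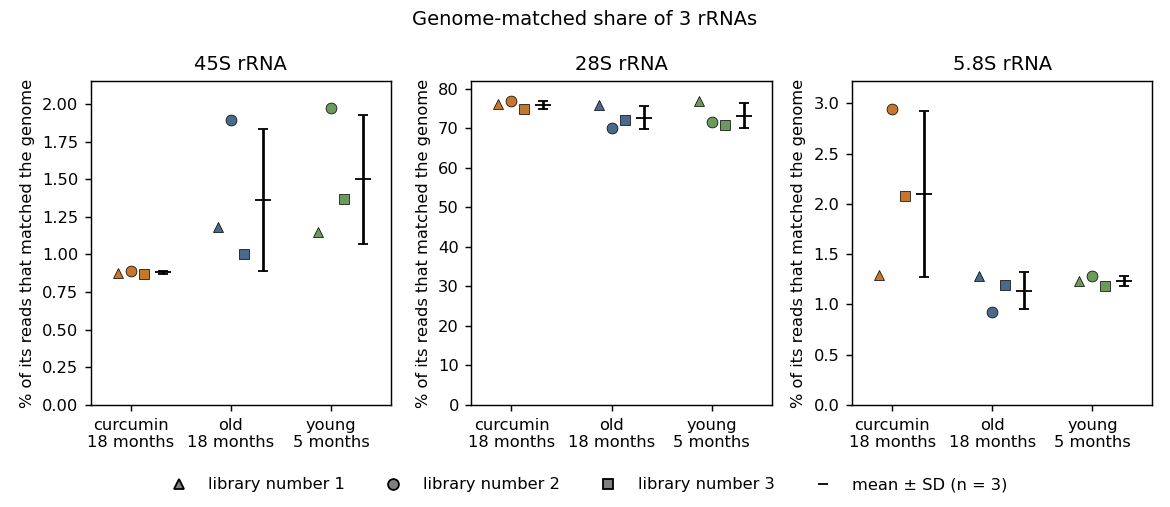
Percent of the reads of 45S, 28S and 5.8S rRNA that matched the genome in each library (symbols by library number), with the mean and SD of 3 libraries. The 3 curcumin-treated libraries lie at 0.873% to 0.893% for 45S, below the lowest untreated library at 1.00%, and treated libraries 2 and 3 are the highest for 5.8S.

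Every feature of the files was then fitted together by the quasi-likelihood test of edgeR on TMM-scaled counts, and a feature counted as changed at a Benjamini-Hochberg adjusted p under 0.05 over 520 features. For curcumin-treated against old mice 0 of the 6 rRNAs and 0 of 520 features were called (0%). At an unadjusted p under 0.05 there were 21 features (4.04%) and none of the 6 rRNAs, and DESeq2 and limma-voom called 0. The fitted log2 change was 0.33 for 45S (SE 0.23) and negative for the other 5 rRNAs: −0.25 for 5.8S, −0.34 for 18S, −0.42 for 28S, −0.51 for 5S and −0.59 for 4.5S (edgeR, adjusted p = 0.917 for each of the 6). With genome-matched reads alone, 45S had −0.28 and 5.8S 0.58 (edgeR, adjusted p = 0.977 for each). Thus 1 of the 6 was positive, beside 56.5% of all 520 features, and the median was −0.38, beside 0.08 over all features. In CPM the 45S values of treated and old mice overlapped, unlike in shares of clean reads.

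Old against young mice gave 0 of the 6 rRNAs and 0 of 520 features (0%), with 5 features (0.962%) at an unadjusted p under 0.05, none of them among the 6, and 0 by DESeq2 and limma-voom. The log2 changes were 0.33 for 5.8S, 0.31 for 4.5S, 0.26 for 5S, 0.22 for 45S, −0.09 for 28S and −0.01 for 18S, the last of which was positive with clean reads as library size (edgeR, adjusted p = 0.999 for each). Of the 6, 4 were positive with a median of 0.24; of all features 45.2% were, with a median of −0.04.

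Curcumin-treated against young mice likewise gave 0 of the 6 rRNAs and 0 of 520 features (0%), with 19 features (3.65%) at an unadjusted p under 0.05; DESeq2 called 1 feature, which was none of the 6, and limma-voom 0. 45S averaged 31916 CPM in curcumin-treated and 21939 CPM in young mice, and its treated libraries were above the young ones without overlap, as were those of 4.81% of all features. Its log2 change of 0.54 (SE 0.23) had an unadjusted p of 0.0388 and an edgeR adjusted p of 0.942. With genome-matched reads alone, 45S had −0.27 (unadjusted p = 0.331) and 5.8S 0.78 (unadjusted p = 0.0178), both with an edgeR adjusted p of 0.932. The other changes were 0.08 for 5.8S, −0.25 for 5S, −0.28 for 4.5S, −0.34 for 18S and −0.52 for 28S (edgeR, adjusted p = 0.957 for 5.8S and 0.942 for the rest), and 5S turned to 0.01 with clean reads as library size. Of the 6, 2 were positive with a median of −0.26, beside 49.4% of all features with a median of −0.01. The 3 comparisons share their groups pairwise, so their values are not independent of each other.

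TMM scaling and scaling by clean reads placed the treated group differently. With clean reads as library size the median log2 change of all features was 0.31 for curcumin-treated against old mice, −0.08 for old against young and 0.19 for curcumin-treated against young, where TMM gave 0.08, −0.04 and −0.01. On the scale of clean reads 45S had a log2 change of 0.54 against old mice (SE 0.25) and of 0.74 against young mice (SE 0.25), above that median in both comparisons, and neither passed the edgeR test (adjusted p = 0.832 and 0.997). 28S had −0.19 against old and −0.26 against young mice on the same scale, below the median in both.

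**Figure D5:**
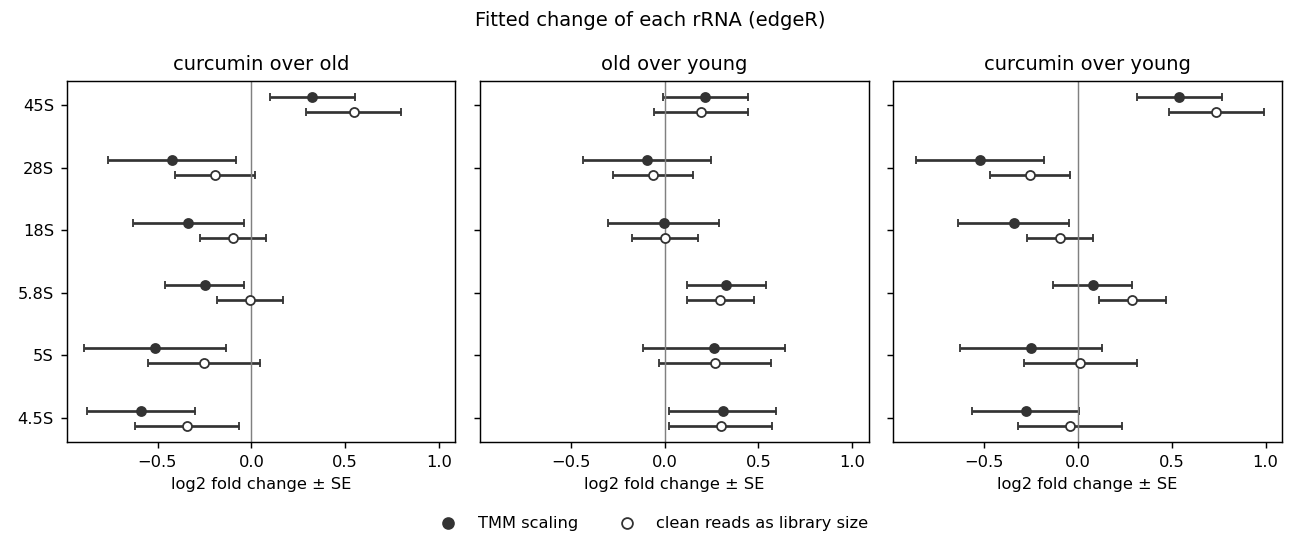
Log2 fold change with its SE for each of the 6 rRNAs in the 3 comparisons, from edgeR with TMM scaling (filled) and with clean reads as library size (open). 45S is the only rRNA above 0 in curcumin over old mice, at 0.33 and 0.54, and none of the values passed the test.

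Without the 3 libraries numbered 1, 2 against 2, the edgeR fit called 73 of 519 features (14.1%; 7.51% lower in curcumin-treated mice) between curcumin-treated and old mice, and 5S was the 1 of the 6 rRNAs among them, with a log2 change of −0.75 (adjusted p = 0.0247). Its shares of clean reads in the libraries kept were 1.60% and 1.503% in curcumin-treated and 2.15% and 2.14% in old mice. Old library 1, which was left out, held 1.20%. The libraries numbered 1 were set apart in these same data by a contrast that called 5S. The 5S call without them is therefore no separate support. Between curcumin-treated and young mice 67 of 519 features (12.9%; 5.78% lower in curcumin-treated mice) were called, and 28S was the 1 rRNA of the 6, at −0.68 (adjusted p = 0.0460). 45S was at 0.46 against old mice (adjusted p = 0.152) and at 0.62 against young mice (adjusted p = 0.0677). A count of 1 in 6 rRNAs is no result about the rRNAs beside these shares. Between old and young mice 0 features were called without these libraries, with 17 at an unadjusted p under 0.05.

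Classes of RNA picked by name, only part of which take part in making ribosomes, were read beside the 6. The list held 9 Ensembl and Rfam classes, among them small nucleolar RNAs (snoRNAs), which guide the modification of rRNA. It also held small nuclear RNAs (snRNAs) of splicing, scaRNAs, ribozymes and further rRNA classes, of which 1 is mitochondrial. All 9 passed the filter, and edgeR called 0 in each comparison. After TMM scaling, 1 of 9 had a positive log2 change for curcumin-treated against old mice (median −0.27), beside 56.5% of all features. For old against young it was 6 of 9 (median 0.10), beside 45.2%. For curcumin-treated against young it was 1 of 9 (median −0.19), beside 49.4%. The positive class was the Rfam snRNA class in both treated comparisons (0.098 against old and 0.097 against young mice). These counts therefore do not describe ribosome-making RNAs alone. Directions could turn with the scaling. The Ensembl snoRNA class had a fitted log2 change of −0.08 for curcumin-treated against young mice. In shares of clean reads this class was higher in treated than in young mice. It held 0.722% ± 0.0331 in curcumin-treated, 0.740% ± 0.0757 in old and 0.670% ± 0.134 in young mice (SD, n = 3 each).

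The features most like each rRNA differed by rRNA, judged by the Pearson correlation of log2 levels scaled to clean reads over the 9 libraries, which share their totals and the split by number. The features named are the top ones among all tested outside the 6, so their values are high by selection. They were taken across the 3 groups and were not tested. 45S was closest to mir-146b (0.93), mir-195a (0.92) and the 5′ end of tRNA-Ser-CGA (0.92). 28S and 18S were closest to CCA ends of tRNAs, which carry the added CCA tail: Glu-TTC (0.90) for 28S and Gly-ACC (0.89) for 18S. 5S was closest to the Ensembl rRNA class (0.97), 5.8S to mir-1843a (0.82) and 4.5S to the CCA end of mitochondrial tRNA-Leu-TAA (0.84). Among the 6 themselves, 45S ran opposite to 28S (−0.56) and 18S (−0.46), and 5.8S opposite to 28S (−0.64).

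The tissue label was checked against miRNAs of muscle and of other cells. All 7 muscle loci listed were present, 5 of them in every library, and their sum ranged over 11504 to 18185 RPM (reads scaled to clean reads) in curcumin-treated, 3767 to 11949 in old and 4299 to 17963 in young mice. The 4 red blood cell loci summed to 24.6 to 57.6 in curcumin-treated, 36.5 to 42.5 in old and 38.1 to 296 in young mice. mir-122 of liver stayed at 0.837 to 3.92 in all libraries. Of the 6 neuronal loci 3 had reads in every library and 3 in 1 library alone, and their sum was 2.51 to 5.09 RPM in curcumin-treated, 0.658 to 4.03 in old and 1.47 to 5.23 in young mice. The lowest treated library, at 11504, lay below the highest old one, at 11949, and the part of the muscle miRNAs in the 45S values was not tested.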

How the data were processed

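The deposited files give, for each library, expected counts of reads per annotation, split by genome match, without normalization. Per the submitters' processing notes, cutadapt 2.5 and the genome build mm10 were used; the annotation tool is not given in the sources used here. In the files the rRNA values were whole numbers that summed to the class total, so each rRNA read was counted under 1 rRNA; how a read fitting both 45S and a mature rRNA was assigned is not stated.

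Totals of classes that list subclasses were left out. Reads of tRNA end fragments were subtracted from the row of the whole tRNA, and the remainder, never set negative, was kept as its own feature. Matched and unmatched reads were then summed and rounded. The 996 features held 83.7% to 87.3% of clean reads, and filterByExpr kept 520 for testing. All 9 libraries entered 1 robust quasi-likelihood fit (edgeR 4.0.16, R 4.3.3, TMM, group only), tested on simulated data first. Summed shares and ratios were set against each other in exact permutation tests (two-sided, SciPy 1.17.1), with Benjamini-Hochberg adjustment over 18 tests (6 quantities in 3 comparisons). Alternatives were RLE, clean reads as library size, DESeq2 1.42.0, limma-voom 3.58.1, no filter, 2 groups only, genome-matched reads, a replicate block, a term for or removal of the libraries numbered 1, and leaving out each library.

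Named were all 6 rRNAs, the mitochondrial rRNAs, the Ensembl and Rfam classes picked by name, and for each rRNA the most correlated features (3 were ranked). Members and lists were chosen with earlier results of these data known. The labels number the libraries 1 to 3 in each group. Same-numbered libraries deviated together between old and young (correlations 0.256 to 0.807) and between curcumin-treated and young mice (0.195 to 0.330). Between curcumin-treated and old mice they did not throughout (−0.0609 to 0.356). Differently numbered libraries varied widely. Young 3 correlated at 0.524 with old 2, against 0.256 with old 3, and young 2 at −0.721 with old 1. Young 2 correlated at 0.215 with treated 3, against 0.195 with treated 2. Whether the numbers pair the libraries is therefore not settled. Sequences of the rRNAs are not reported here.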

Additional observations from a re-analysis of the deposited data

How the results depend on the processing

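The counts of features called stayed at 0 in every comparison under RLE, clean reads as library size, limma-voom, no filter, 2 groups only, genome-matched reads and the loss of any 1 library. Curcumin-treated against young mice gave 1 with DESeq2 and 1 with a term for the libraries numbered 1. Without those 3 libraries 73 features were called against old and 67 against young mice. With the replicate number as a block 0 features were called in each comparison, and for 18S, old against young, the block gave 0.018. Paired differences of shares and ratios have the same means as the unpaired ones by construction. Their exact sign-flip p cannot fall below 0.25, so no call could change. Over 342 fitted values of the 6 rRNAs under the alternatives, 2 were called, both without the libraries numbered 1, and 19 changed sign; the cause was not tested.

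The summed rRNA share of old minus young mice had no stable sign: it was −0.353 points with genome-matched reads and −0.568 without the libraries numbered 1, and −2.83 to 3.45 on leaving out 1 library, negative without young 1, old 2 or old 3. For curcumin-treated minus young it ranged over −5.30 to 0.978, positive without young 2, and for curcumin-treated minus old over −4.73 to −0.774. The log2 ratio of 45S to mature rRNA ranged over 0.41 to 0.89 (curcumin-treated minus old), 0.64 to 1.15 (curcumin-treated minus young) and −0.078 to 0.47 (old minus young, −0.078 without young 2 and −0.0081 without old 1). Without all 3 libraries numbered 1 it was 0.93, 1.20 and 0.27.

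For 45S, genome-matched reads alone gave −0.28 against old and −0.27 against young mice in curcumin-treated mice, and for 5.8S 0.58 against old. 18S, old against young, was 0.0033 with clean reads, 0.0012 with genome-matched reads, 0.017 with the term for the libraries numbered 1 and 0.036 with limma-voom. In curcumin-treated against young mice, 5.8S was −0.065 without the libraries numbered 1 and 5S 0.014 with clean reads. On leaving out 1 library the signs also turned for 28S to 18S (−0.11 to 0.044), 28S (−0.42 to 0.28), 18S (−0.28 to 0.26) and 5S (−0.080 to 0.63) in old against young, for 5S to 28S in curcumin-treated against old (−0.21 to 0.14), and for 5.8S (−0.078 to 0.26) and 5S (−0.60 to 0.19) in curcumin-treated against young mice. Counting error is small at this depth beside the spread between libraries.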
